A study of Mus musculus with 8 samples.

Results

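The transcription factors described here, Snai1, Snai2, Zeb1, Zeb2 and Twist1, are the factors best known for driving the epithelial-mesenchymal transition. They were followed through the probe sets whose platform annotation was exactly one of these symbols, and 10 such probe sets for 5 genes were found among the 45141 probe sets of the table, in which 17097 symbols had a probe set of their own. Snai1, Snai2 and Twist1 had 1 probe set each, Zeb1 had 3 and Zeb2 had 4. Expression was measured on 8 perfect-match Affymetrix arrays, each given amplified RNA of 50 sorted cells. The cells came from mouse embryos at gastrulation with the transgenes Mesp1-rtTA and Teto-H2B-GFP, which all 4 groups share. The 4 groups were GFP+ and GFP- cells at embryonic day 7.5 (E7.5) and GFP+ and GFP- cells at E6.5, with 2 arrays each, numbered 1 and 2 as biological replicates. GFP+ cells were those with nuclear histone-GFP under control of the Mesp1-driven transactivator, so the fraction is defined by the reporter and can differ from the set of cells that hold Mesp1 RNA. GFP- cells were living cells without that signal and were not selected for a lineage. The labels do not say how many embryos were pooled.

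In the gastrulating mouse embryo, epiblast cells at the primitive streak lose their epithelial junctions, pass through the basement membrane and spread as mesoderm. Snai1 and Snai2 are zinc-finger repressors, and Zeb1 and Zeb2 are larger proteins with a cluster of zinc fingers near each end and a homeodomain between them. All of them bind E-box DNA and repress the E-cadherin gene Cdh1 and other genes of epithelial junctions and polarity. Twist1 is a basic helix-loop-helix factor that binds related E-boxes as a dimer with E proteins. In mouse gastrulation, loss of Snai1 leaves mesoderm cells with epithelial features, loss of Zeb2 or Twist1 harms later steps such as neural crest development, and mice without Snai2 are viable.

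The sequence that the Snail and Zeb factors bind best, CAGGTG or its reverse complement CACCTG, was looked for in the 250 bases before the gene starts given by RefSeq (GRCm38.p6), with the letters matched on both strands. Promoters were matched for 3 of the 5 members (Snai1, Zeb2 and Twist1). The sequences of Snai1 and of 3 epithelial genes are shown because Snai1 is the member that differed most between the fractions, and because Crb3, Spint2 and Epcam carry 2 or more copies of the motif. These 3 genes were picked after the motif counts and values were seen. Rab25, Cldn7 and Ocln also had a window with 2 copies and are not shown. The windows are chr2:167537945-167538194 on the plus strand, chr17:57061951-57062200 on the plus strand, chr7:29281978-29282227 on the minus strand and chr17:87635729-87635978 on the plus strand. Capitals mark each CAGGTG or CACCTG.
Snai1: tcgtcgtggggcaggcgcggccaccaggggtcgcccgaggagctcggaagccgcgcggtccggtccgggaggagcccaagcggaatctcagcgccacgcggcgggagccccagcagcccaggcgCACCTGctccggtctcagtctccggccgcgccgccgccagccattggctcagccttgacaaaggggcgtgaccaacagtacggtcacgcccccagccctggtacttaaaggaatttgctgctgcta
Crb3: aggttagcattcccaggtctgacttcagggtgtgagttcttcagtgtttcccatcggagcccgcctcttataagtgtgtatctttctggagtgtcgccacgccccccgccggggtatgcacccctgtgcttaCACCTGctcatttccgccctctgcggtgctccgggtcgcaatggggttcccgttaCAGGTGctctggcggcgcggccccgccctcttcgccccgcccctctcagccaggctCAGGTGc
Spint2: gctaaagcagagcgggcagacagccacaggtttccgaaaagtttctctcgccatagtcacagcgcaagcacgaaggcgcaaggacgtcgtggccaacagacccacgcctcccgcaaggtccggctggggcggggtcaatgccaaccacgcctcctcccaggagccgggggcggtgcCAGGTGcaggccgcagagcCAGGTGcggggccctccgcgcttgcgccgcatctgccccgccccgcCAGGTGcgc
Epcam: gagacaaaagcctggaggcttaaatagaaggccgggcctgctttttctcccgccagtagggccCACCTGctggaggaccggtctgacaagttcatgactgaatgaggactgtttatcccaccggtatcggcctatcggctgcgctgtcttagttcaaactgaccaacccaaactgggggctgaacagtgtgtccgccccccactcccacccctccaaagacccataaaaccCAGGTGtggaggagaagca

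The Snai1 window held 1 copy, starting 126 bases before the gene start, and the windows of Zeb2 and Twist1 held 0. Crb3 and Spint2 had 3 copies each and Epcam had 2. Crb3 encodes an apical polarity protein, Spint2 an inhibitor of cell-surface serine proteases, and Epcam an epithelial adhesion molecule. Of the 17 genes of the epithelial list that had a promoter sequence, 12 (70.6%) held the motif in at least 1 window, against 5252 of 27025 genes (19.4%) over all promoters. Counted by window, the shares were 14 of 24 (58.3%) and 5657 of 32851 (17.2%). The list was a chosen one and not a random set of genes, so the contrast is descriptive only. Cdh1 was among the 30 genes of the list but had no promoter sequence, so it was not searched. Of the 16 genes of the mesenchymal list with a sequence, 1 (6.25%) held it. The wider E-box CANNTG, which contains both forms, stood in 76.5% of those epithelial genes and 50.0% of those mesenchymal genes, against 69.3% of all genes. These counts describe letters in a window of fixed length and say nothing about binding in these cells.

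The files held log2 values made by the authors with RMA. Group means below are of 2 arrays with their SD, and changes are differences of log2 means with the standard error (SE) of a limma model fitted to 11706 genes on all 8 arrays. P-values were adjusted over those genes by the Benjamini-Hochberg method, with a threshold of 0.05. The median of all values, 4.38, served as a filter: a gene entered the fit when at least 2 arrays lay above it. Snai1, Zeb2 and Twist1 had all 8 arrays above this value, Zeb1 had 5 and Snai2 had 0, so 4 of the 5 members were tested. The 5 Zeb1 arrays were the 4 of E7.5 and 1 of GFP+ cells at E6.5, so this gene passed mainly through the stage at which it was high. Levels of different probe sets cannot be set against each other. Array medians were 4.20 to 4.23 for replicate 1 and 4.54 to 4.59 for replicate 2, so differences within each replicate number are given beside the pooled ones. Sorted values of the arrays differed by a mean of 0.029 within replicate 1 and 0.025 within replicate 2, against 0.229 between the numbers, as in arrays brought to a common distribution within each number and not across them. The SDs and SEs therefore hold this offset, and the filter value of 4.38 lies above the medians of replicate 1 and below those of replicate 2. Mesp1 averaged 8.70 in GFP+ cells and 7.91 in GFP- cells at E7.5, and 9.89 in GFP+ cells and 5.95 in GFP- cells at E6.5.

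**Figure D1:**
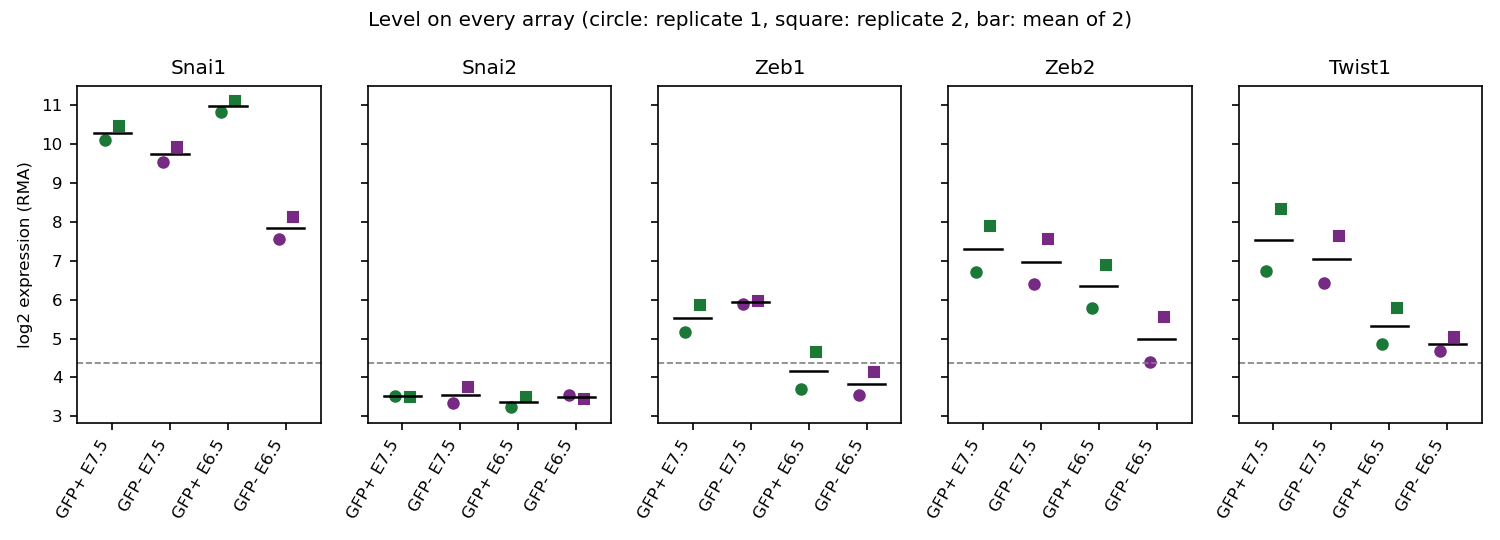
Log2 expression of the 5 genes on every array (vertical axis) by group (horizontal axis), with circles for replicate 1, squares for replicate 2, a bar for the mean of 2 and a dashed line at the filter value of 4.38. Snai1 was high in both GFP+ groups and lowest in GFP- cells at E6.5, Zeb1, Zeb2 and Twist1 had higher means at E7.5 than at E6.5 in both fractions, and Snai2 lay under the line on all 8 arrays; levels of different genes are not comparable.

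Snai1, the repressor that marks cells leaving the streak, was the 1 member whose difference between the fractions passed the test at E6.5. Its levels were 10.09 and 10.46 in GFP+ cells and 9.54 and 9.93 in GFP- cells at E7.5. At E6.5 they were 10.83 and 11.09 in GFP+ cells and 7.54 and 8.12 in GFP- cells. The 2 arrays of GFP- cells at E6.5 stood apart from the other 6, and no group overlapped another. From high to low, the order of the groups was GFP+ at E6.5, GFP+ at E7.5, GFP- at E7.5 and GFP- at E6.5.

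At E6.5, Snai1 averaged 10.96 ± 0.19 in GFP+ cells and 7.83 ± 0.41 in GFP- cells (SD, n = 2 each). GFP+ cells were higher by 3.13 (SE 0.34), or 8.73-fold (limma adjusted p = 0.0495). Replicate 1 alone gave 3.28 and replicate 2 gave 2.97. Of 11706 genes 9 (0.0769%) passed in either direction at this stage, and Snai1 was the 1 member among the 4 tested that did. It was also the 1 member with an unadjusted p under 0.05, which 5.73% of all genes had. The adjusted p lay close to the threshold: it was 0.158 with only the 4 arrays of the comparison, 0.0534 with no filter, 0.0766 when each kept probe set was tested on its own, and 0.0825 to 0.373 when any 1 array was left out. The difference itself stayed between 2.84 and 3.42 in those fits.

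At E7.5, Snai1 averaged 10.27 ± 0.26 in GFP+ cells and 9.73 ± 0.27 in GFP- cells (SD, n = 2 each). The difference of 0.54 (SE 0.34, 95% interval -0.26 to 1.34, limma adjusted p = 1.00) did not pass, although both GFP+ arrays lay above both GFP- arrays, as they did for 10.3% of all genes. At this stage limma called 0 of 11706 genes (0%), and 282 (2.41%) had an unadjusted p under 0.05, among them 0 of the 4 members. The E7.5 difference minus the E6.5 difference was -2.59 (SE 0.48, -2.73 and -2.44 within replicates 1 and 2). This interaction had an unadjusted p of 0.000946 and an adjusted p of 0.923 in limma, which called 0 genes for it, with 317 (2.71%) at an unadjusted p under 0.05.

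Between the stages, the Snai1 differences of the fractions had opposite signs. In GFP+ cells the E7.5 minus E6.5 change was -0.69 (SE 0.34, -0.74 and -0.63 within replicates 1 and 2). In GFP- cells it was 1.90 (SE 0.34, 3.73-fold, 1.99 and 1.80). Neither passed (limma adjusted p = 1.00 in GFP+ and 0.140 in GFP- cells). With the replicate number as a block, the change in GFP- cells had a limma adjusted p of 0.0313, and with a mean-variance trend in limma it was 0.0317.

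Markers of several cell types also differed in level between the fractions at E6.5. All 13 visceral endoderm markers were lower in GFP+ than in GFP- cells at E6.5, though 0 of them passed. Their mean log2 level was 4.27 and 4.69 in GFP+ arrays and 5.93 and 7.69 in GFP- arrays, and Apob, Cubn, Foxa2, Hnf4a and Spink1 lay below 4.38 in GFP+ cells. Of the extraembryonic ectoderm markers, 9 of 12 were lower in GFP+ cells and 0 passed. They averaged 4.62 and 4.92 in GFP+ arrays and 5.34 and 6.05 in GFP- arrays, with Bmp4, Elf5, Esrrb and Wnt7b below 4.38 in GFP+ cells. Epiblast markers were lower in GFP+ cells in 8 of 9 (median -1.03), at 7.95 and 8.34 in GFP+ arrays and 9.47 and 9.60 in GFP- arrays, and 0 passed. Neural ectoderm markers were lower in 7 of 7 tested (median -0.34), and 0 passed. Markers of the primitive streak and nascent mesoderm were higher in GFP+ cells in 15 of 16 (median 2.49), at 8.30 and 8.40 in GFP+ arrays and 5.33 and 6.36 in GFP- arrays, and Mesp1, Aplnr and Sp5 passed. The sort itself used a Mesp1-driven reporter. The part of these cell types in the Snai1 difference was not tested. Without replicate 2 of GFP- cells at E6.5 the Snai1 difference was 3.42, and without replicate 1 it was 2.84. Each of these shifts includes the offset between replicate numbers, so neither bears on a cell type. In such samples of many cells, fewer cells that express a gene and less RNA per cell cannot be told apart.

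Snai2, the close relative of Snai1 known for neural crest in chick, was at 3.53 and 3.50 in GFP+ cells and 3.35 and 3.76 in GFP- cells at E7.5. At E6.5 it was at 3.23 and 3.50 in GFP+ cells and 3.55 and 3.44 in GFP- cells. The 8 arrays spanned 0.53, all under the filter value, and the arrays of neighbouring groups overlapped. Tested without the filter on all probe sets with 1 symbol, its changes lay between -0.13 and 0.15 in the 5 comparisons, with SE 0.26 for those between groups. Values this low cannot tell a gene that is off from one the probes do not measure.

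**Figure D2:**
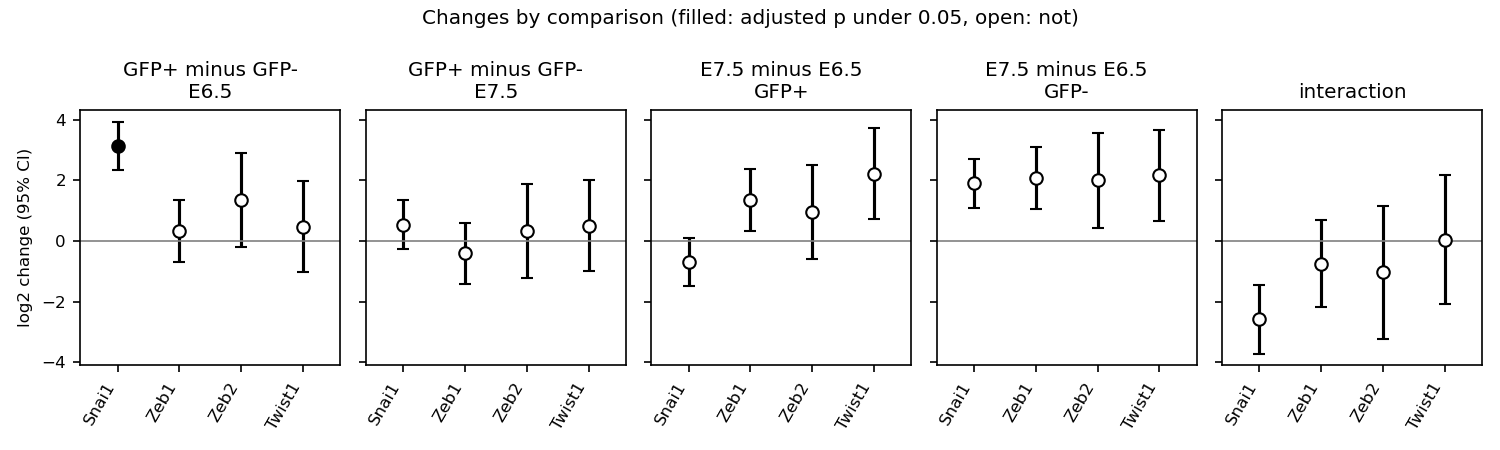
Log2 change (vertical axis) of the 4 tested members in the 5 comparisons, 1 panel each, with 95% confidence intervals from limma. The filled point, Snai1 for GFP+ minus GFP- at E6.5 (3.13), is the 1 value past the adjusted threshold, and all 4 members were at 1.90 to 2.17 for E7.5 minus E6.5 in GFP- cells.

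Zeb2, also called Sip1, a repressor that binds Smad proteins, was the second member with separate fractions at E6.5. It was at 6.70 and 7.90 in GFP+ cells and 6.39 and 7.56 in GFP- cells at E7.5, and at 5.79 and 6.89 in GFP+ cells and 4.41 and 5.55 in GFP- cells at E6.5. Replicate 2 was higher than replicate 1 in all 4 groups, by more than 1 on the log2 scale. At E6.5 both GFP+ arrays lay above both GFP- arrays, by a narrow margin of 5.79 against 5.55.

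The E6.5 difference of Zeb2 was 1.36 (SE 0.66, 95% interval -0.20 to 2.91, limma adjusted p = 1.00). Replicate 1 alone gave 1.38 and replicate 2 gave 1.34. It was 0.89 with the mean of the kept probe sets, and 0.79 to 1.93 when 1 array was left out. Snai1 and Zeb2 were thus 2 of 4 tested members with GFP+ arrays wholly above GFP- arrays at E6.5, where 14.8% of all genes were so. At E7.5 the difference was 0.32 (SE 0.66, 95% interval -1.23 to 1.88), and the fractions overlapped.

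The E7.5 minus E6.5 difference of Zeb2 was 0.96 in GFP+ cells (SE 0.66, 0.91 and 1.01 within the replicates, limma adjusted p = 1.00). In GFP- cells it was 2.0 (SE 0.66, 1.98 and 2.01, limma adjusted p = 0.584). With 1 array left out, the difference in GFP+ cells lay between 0.36 (without GFP+ E7.5 replicate 2) and 1.56 (without GFP+ E7.5 replicate 1). With the replicate number as a block, the difference in GFP- cells passed (limma adjusted p = 0.0279).

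Zeb1, a paralogue of Zeb2 that also represses Cdh1, was higher at the later stage in both fractions, without passing the test. It was at 5.17 and 5.87 in GFP+ cells and 5.90 and 5.96 in GFP- cells at E7.5, and at 3.71 and 4.64 in GFP+ cells and 3.54 and 4.14 in GFP- cells at E6.5. Every E7.5 array lay above every E6.5 array. Both means of the earlier stage, 4.18 in GFP+ cells and 3.84 in GFP- cells, lay below the filter value, so the size of its change between stages is uncertain.

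The E7.5 minus E6.5 difference of Zeb1 was 1.34 in GFP+ cells (SE 0.43, 1.46 and 1.22 within replicates 1 and 2, limma adjusted p = 0.982). In GFP- cells it was 2.09 (SE 0.43, 2.36 and 1.82, limma adjusted p = 0.209). Without GFP+ E6.5 replicate 1 the difference in GFP+ cells was 0.87, the lowest value with 1 array left out. Between fractions Zeb1 was at -0.41 at E7.5 (SE 0.43, -0.73 and -0.10 within the replicates) and at 0.33 at E6.5 (SE 0.43, 0.17 and 0.50), and neither difference passed. Both GFP+ arrays at E7.5 were below both GFP- arrays, by a margin of 5.87 against 5.90, as were 10.8% of all genes.

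Twist1, a factor of head mesenchyme and mesoderm, had the highest point estimate among the 4 tested members for E7.5 minus E6.5 in each fraction. In GFP- cells it was within 1 SE of Snai1, Zeb1 and Zeb2. It was at 6.74 and 8.33 in GFP+ cells and 6.43 and 7.63 in GFP- cells at E7.5, and at 4.87 and 5.78 in GFP+ cells and 4.68 and 5.05 in GFP- cells at E6.5. All 4 arrays of E7.5 exceeded all 4 of E6.5, and the fractions overlapped at each stage. The change was 2.21 in GFP+ cells (SE 0.64, 4.64-fold, 1.87 and 2.55 within replicates 1 and 2, limma adjusted p = 0.802). In GFP- cells it was 2.17 (SE 0.64, 4.49-fold, 1.75 and 2.58, limma adjusted p = 0.460). With 1 array left out, the change in GFP+ cells lay between 1.42 (without GFP+ E7.5 replicate 2) and 3.01 (without GFP+ E7.5 replicate 1).

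GFP+ minus GFP-, Twist1 was at 0.51 at E7.5 (SE 0.64, 95% interval -0.99 to 2.01) and at 0.46 at E6.5 (SE 0.64, 95% interval -1.04 to 1.96). These intervals are wide, so equal levels in the fractions were not shown. The interaction was 0.05 (SE 0.90), with 0.12 and -0.03 within replicates 1 and 2.

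In GFP- cells Snai1, Zeb2 and Twist1, which exceeded the filter value on all 8 arrays, were higher on both E7.5 arrays than on both E6.5 arrays, where 13.1% of all genes were higher without overlap. Zeb1 was too, but in GFP- cells it exceeded the filter value on the E7.5 arrays only, so it was tested because of the stage at which it was high. In limma 0 of these genes passed and each had an unadjusted p under 0.05, where 0.0940% of all genes passed and 6.48% had such a p. In GFP+ cells Twist1 and, with 1 of its E6.5 arrays below the filter value, Zeb1 were higher without overlap (11.8% of all genes) and Snai1 was lower without overlap (15.2% of all genes), and 0 members and 0.0256% of all genes passed in limma. An unadjusted p under 0.05 was reached by Twist1 and Zeb1 and by 3.85% of all genes. In GFP- cells visceral endoderm markers were lower at E7.5 in 12 of 13 (median -1.31), with mean levels of 4.85 and 5.99 at E7.5 and 5.93 and 7.69 at E6.5. Extraembryonic ectoderm markers were higher in 8 of 12 and lower in 4 (median 0.48). Their mean levels were 7.04 and 5.96 at E7.5 and 5.34 and 6.05 at E6.5, so the mean was higher at E7.5 on replicate 1 only. Epiblast markers were lower in 9 of 9 (median -1.35), at 8.0 and 8.16 at E7.5 and 9.47 and 9.60 at E6.5. Endothelial and blood markers were higher in 8 of 8 tested (median 1.48), with mean levels of 6.12 and 6.0 at E7.5 and 4.27 and 4.75 at E6.5. Of the neural crest markers 6 of 8 were tested, and 4 were higher at E7.5 in GFP- cells (median 0.46), with mean levels of 5.48 and 5.81 at E7.5 and 5.32 and 5.44 at E6.5. Tfap2a averaged 7.15 at E7.5 and 5.32 at E6.5, whereas Foxd3 averaged 3.99 at E7.5 and 5.85 at E6.5. Pax3 and the untested Pax7 and Tfap2b lay below 4.38 at both stages, and Foxd3 did at E7.5. Of the markers in these lists 0 passed. Primitive streak and nascent mesoderm markers were higher at E7.5 in GFP- cells in 11 of 16 (median 0.93). Their mean levels were 6.80 and 6.99 at E7.5 and 5.33 and 6.36 at E6.5. Aplnr was the 1 marker of that list that passed, from a mean below 4.38 at E6.5. The part of other cell types in the stage changes was not tested.

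The other probe sets of Zeb1 and Zeb2 exceeded the filter value on few or no arrays. Of 5 such probe sets, 1 passed the filter, 1454200_PM_at of Zeb2, at 4.29 and 4.41 in GFP+ cells and 4.30 and 4.67 in GFP- cells at E7.5, and at 3.34 and 3.67 in GFP+ cells and 3.16 and 2.99 in GFP- cells at E6.5. Its E7.5 minus E6.5 difference was 0.85 in GFP+ cells (SE 0.27) and 1.41 in GFP- cells (SE 0.27), and its E6.5 difference between fractions was 0.43 (SE 0.27), when every probe set was tested without the filter. The other Zeb2 probe sets were at 0.56 in GFP+ and 0.78 in GFP- cells (1458941_PM_at, SE 0.32 each) and at 0.32 and 0.11 (1456389_PM_at, SE 0.39 each) between the stages. For Zeb1, 1446127_PM_at was at 0.78 in GFP+ cells and 0.75 in GFP- cells (SE 0.27 each), and 1443005_PM_at at 0.12 and 0.33 (SE 0.29 each). These stage differences of the 5 other probe sets were positive in both fractions, and 0 passed in that fit. For Zeb2 between fractions, 1458941_PM_at was at -0.23 at E7.5 and -0.01 at E6.5 (SE 0.32 each). Zeb2 probe set 1456389_PM_at was at 0.43 at E7.5 and 0.22 at E6.5 (SE 0.39 each). At E7.5 1454200_PM_at was at -0.14 (SE 0.27), so it and 1458941_PM_at did not share the positive sign of the used Zeb2 probe set. For Zeb1 between fractions, 1446127_PM_at was at 0.31 at E7.5 and 0.28 at E6.5 (SE 0.27 each), so it did not share the negative sign of the used Zeb1 probe set at E7.5. The third Zeb1 probe set, 1443005_PM_at, did share that sign, at -0.16 at E7.5 and 0.04 at E6.5 (SE 0.29 each).

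**Figure D3:**
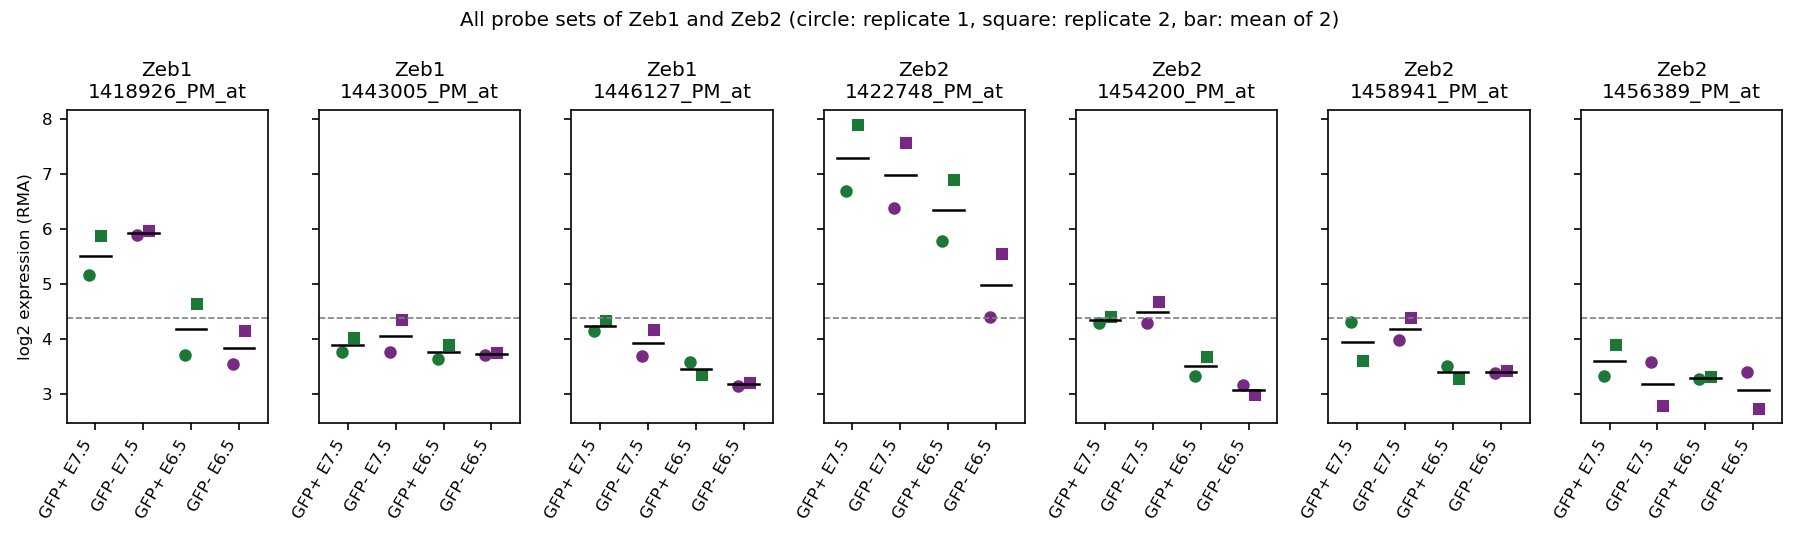
Log2 expression (vertical axis) on every array by group for the 3 probe sets of Zeb1 and the 4 of Zeb2, with circles for replicate 1, squares for replicate 2, a bar for the mean of 2 and a dashed line at 4.38. The used Zeb2 probe set, 1422748_PM_at, lay above the line on all 8 arrays and the used Zeb1 probe set, 1418926_PM_at, on 5, while each of the other 5 lay above it on at most 2.

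The genes with the pattern most like each member were found by the mean absolute difference over the 8 arrays, after each gene was centred on its own mean. For Snai1 they were Dlc1 (0.22), Sp5 (0.24), Cdh11 (0.27), Gas1 (0.32) and Mesp1 (0.32), where the median over all genes was 1.02. Sp5 is a target of Wnt signals, Cdh11 is a mesenchymal cadherin and Gas1 a co-receptor for hedgehog. Of these, Dlc1 (3.57), Sp5 (3.40) and Mesp1 (3.94) also passed at E6.5 (limma), whereas Cdh11 (3.55) and Gas1 (3.01) did not. These genes were picked for likeness to Snai1 on the same arrays, so large E6.5 differences follow from that choice.

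For Zeb1 the closest genes were Cald1 (0.22), Car3 (0.27), Fabp7 (0.28), H2-T24 (0.28) and Ror2 (0.29). For Zeb2 they were P3h2 (0.22), Cdkn1c (0.25), Akap2 (0.27), Nfil3 (0.27) and Kif3a (0.29). For Twist1 they were Col5a2 (0.30), Ncam1 (0.31), Cdkn1c (0.33), Hsd11b2 (0.33) and Prrx2 (0.34). Cald1 encodes an actin-binding protein, Cdkn1c a cyclin-dependent kinase inhibitor, Col5a2 a fibrillar collagen chain and Prrx2 a homeobox factor of mesenchyme. Cdkn1c is on the lists of both Zeb2 and Twist1.

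Among the members, Zeb1, Zeb2 and Twist1 lay 0.43 to 0.48 from each other by this measure. Snai1 lay 0.68 from Zeb2, 1.00 from Zeb1 and 1.06 from Twist1. Of the 11705 genes compared, 63 were closer to Zeb1 than Twist1 was. For Snai1, 161 genes were closer than Zeb2, 5071 were closer than Zeb1 and 7518 were closer than Twist1. This measure includes the offset between replicate numbers, which all genes on an array share in part.

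**Figure D4:**
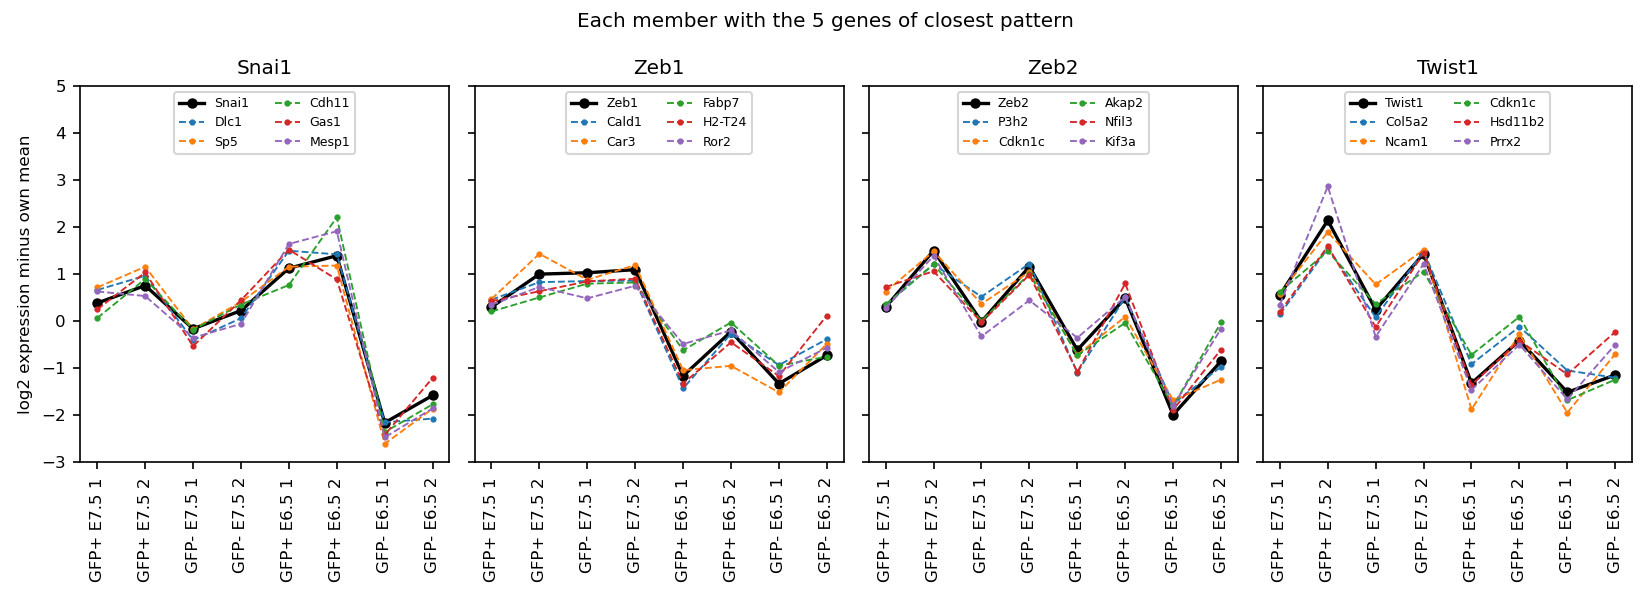
Log2 expression of each tested member (black) and its 5 closest genes (coloured) on the 8 arrays, each centred on its own mean (vertical axis), with arrays named by group and replicate number (horizontal axis). The panel of Snai1 has its low point in GFP- cells at E6.5 and its high point in GFP+ cells at E6.5, while Zeb1 and Twist1 lie above their means on all 4 arrays of E7.5 and below them on all 4 of E6.5.

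Genes around these factors were described by lists. Of the relatives and partners of the factors, 15 were tested, and 0 passed between fractions at either stage. Their median difference was -0.06 at E7.5 and 0.02 at E6.5. The third Snail gene Snai3 was at -0.06 at E7.5 and -0.32 at E6.5 (SE 0.29 each), and the Twist1 paralogue Twist2 at -0.11 and -0.30 (SE 0.49 each). The E protein genes, whose products pair with Twist1, were at 0.02 (Tcf3), 0.50 (Tcf4) and 0.72 (Tcf12) at E6.5. Foxc2, a forkhead factor used as a marker of mesenchymal change in tumours, was the 1 relative that passed between stages, at 5.45 in GFP+ cells and 5.10 in GFP- cells (limma adjusted p = 0.0409 and 0.0160), with means below 4.38 at E6.5 that leave these sizes uncertain. It exceeded the filter value on the E7.5 arrays only, so it was tested because of the stage at which it was high.

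Of the co-repressors through which these factors act, 13 were tested, 0 passed in any of the 5 comparisons, and their median difference at E6.5 was 0.10. Ctbp1 was at 0.34 (SE 0.33) and Ctbp2 at -0.86 (SE 0.28). Of the genes for turnover of the Snail protein, 12 were tested and 0 passed in any comparison. The kinase gene Gsk3b, whose product marks Snail for destruction, was at 0.17 at E7.5 and 0.23 at E6.5 (SE 0.38 each), and Fbxl14, a ubiquitin ligase subunit, was at -1.01 at E7.5 and 0.43 at E6.5 (SE 0.42 each).

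Of the signals and activators upstream, 19 were tested and 1, Mesp1, passed at E6.5, with a median difference of 0.73 against 0.01 for all genes. Mesp1 was at 3.94 (SE 0.33, limma adjusted p = 0.0209). Because the fractions were sorted by a Mesp1-driven reporter, this difference is not independent of the sort. Fgf8, Fgf4 and their receptor gene Fgfr1, which lie upstream of Snai1 in the mouse streak, were at 0.48, 0.16 and 0.26 at E6.5, and Eomes, a T-box factor of the streak, at 1.40, none past the threshold. Between stages Msgn1, a factor of presomitic mesoderm, rose by 3.36 in GFP+ and 5.18 in GFP- cells (limma adjusted p = 0.0409 and 0.00202). Epb41l5, which helps cells release their adhesions at the streak, was at -0.07 (SE 0.32) at E6.5.

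Of the epithelial list, 25 genes were tested, and 0 passed between fractions (limma), although 23 were lower in GFP+ cells at E6.5 and 21 at E7.5. The median was -0.49 at E7.5 and -1.12 at E6.5, against -0.01 and 0.01 for all genes. Cdh1, the best known target of these repressors, was at 5.84 and 5.36 in GFP+ cells and 6.99 and 6.99 in GFP- cells at E7.5, and at 5.84 and 6.14 in GFP+ cells and 8.02 and 8.29 in GFP- cells at E6.5. Its E6.5 difference of -2.16 (SE 0.31) had a limma adjusted p of 0.101, and its E7.5 difference was -1.39 (SE 0.31). Of the genes whose promoters are printed above, Crb3 was at -2.34 (SE 0.47), Epcam at -1.12 (SE 0.83) and Spint2 at -0.89 (SE 0.52) at E6.5. Esrp1, a splicing regulator of epithelial cells, was at -0.70 at E6.5 (SE 0.67). Visceral endoderm, extraembryonic ectoderm and epiblast are epithelia themselves. At E7.5 their markers were lower in GFP+ cells in 13 of 13 (median -0.41), 11 of 12 (median -0.94) and 9 of 9 (median -1.34), and at E6.5 in 13 of 13, 9 of 12 and 8 of 9. Their part in the epithelial differences was not tested.

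Of the mesenchymal list, 16 of 24 genes were tested, and 1, Fn1, passed between fractions at E6.5. At each stage 12 were higher and 4 lower in GFP+ cells, with a list median of 0.19 at E7.5 and 0.30 at E6.5. Most genes of the list thus differed far less than the cadherin genes and Fn1 did at E6.5. Fn1, the gene of fibronectin, was at 0.63 at E7.5 and 3.18 at E6.5 (SE 0.28 each), Cdh2, the gene of N-cadherin, at 0.31 and 2.67 (SE 0.43 each), and Cdh11 at 0.40 and 3.55 (SE 0.55 each), from a mean below 4.38 in GFP- cells at E6.5 that leaves its size uncertain. Vim, the gene of vimentin, was at -0.73 at E7.5 and -0.36 at E6.5 between fractions (SE 0.40 each), and at 2.11 in the GFP+ and 2.48 in the GFP- fraction between stages. Between stages in GFP- cells all 16 were higher at E7.5, and Fn1 passed at 3.06 (limma adjusted p = 0.0160).

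**Figure D5:**
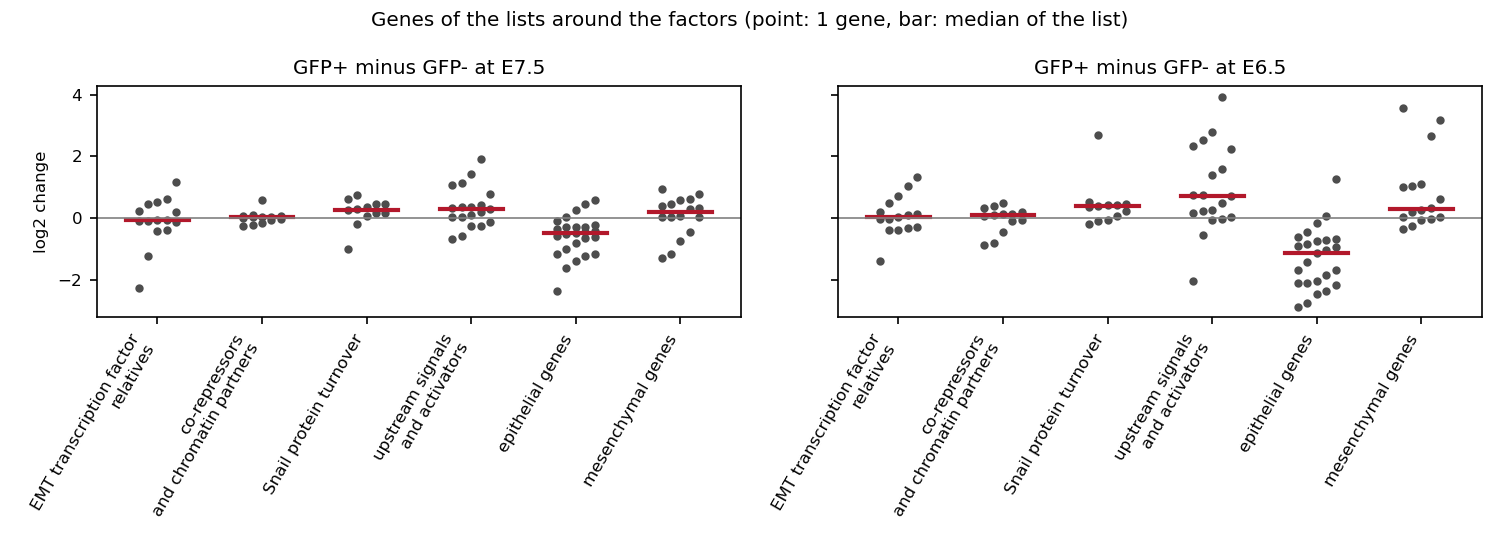
Log2 difference GFP+ minus GFP- (vertical axis) for the tested genes of 6 lists (horizontal axis) at E7.5 and at E6.5, with 1 point per gene and a bar at the median of the list. Epithelial genes had medians of -0.49 at E7.5 and -1.12 at E6.5, and the co-repressors and the relatives of the factors stayed within 0.10 of 0 in the median at both stages.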

How the data were processed

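Amplified RNA of 50 sorted cells per sample was measured on 8 arrays in 4 groups (fraction by stage) of 2. Per the submitters' processing notes the deposited values are log2 expression values from RMA; its version and a genome build are not given in the sources used here. The number of arrays limits the precision. The labels call the 2 arrays of a group biological replicates without naming embryos or litters, so p-values measure only the spread between these arrays. Of 45141 probe sets, 28898 had 1 gene symbol in the platform annotation, 551 had several and 15588 none (104 were controls). Probe sets stayed in if 2 or more arrays exceeded 4.38, the median of all values, and a gene was its kept probe set with the highest mean (11706 genes). limma 3.58.1 in R 4.3.3 fitted 1 mean per group on all 8 arrays (4 residual and 3.21 prior degrees of freedom) for 5 comparisons. The fit was tested on simulated data with independent noise on each array and no offset between replicate numbers. That test therefore does not check the fit under the offset seen in these arrays. Named genes were all members, the 5 genes of closest pattern for members whose group means span at least 1, list genes past the threshold, and a fixed set of list genes, some not analysed here; others named with a value were chosen after their values were seen. The members and lists were chosen with earlier results of these data known. Alternatives were the replicate block, no filter, the mean of or each kept probe set, centring or quantile normalization of arrays, only the 4 arrays compared, a variance trend, and leaving out each array. Every probe set without the filter was added after seeing the data.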

Additional observations from a re-analysis of the deposited data

Results flagged for a closer look

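Snai1 differed in the direction of its stage change between the fractions on both replicate numbers: it was lower at E7.5 in GFP+ cells (-0.74 and -0.63 within replicates 1 and 2) and higher at E7.5 in GFP- cells (1.99 and 1.80). The difference between these changes was -2.59, tested as an interaction (limma adjusted p = 0.923), and did not pass.

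Zeb1 differed in the direction of its fraction difference between the stages on both replicate numbers: it was lower in GFP+ cells at E7.5 (-0.73 and -0.10) and higher in GFP+ cells at E6.5 (0.17 and 0.50). The difference of these was -0.75 (SE 0.61, limma adjusted p = 1.00), and did not pass. The opposite directions on both replicate numbers rest on 1 probe set, whose means at E6.5 lay below 4.38. The other Zeb1 probe sets were below that value on all arrays. Of these, 1446127_PM_at was at 0.31 at E7.5 and 0.28 at E6.5, a difference of 0.03. The third, 1443005_PM_at, was at -0.16 at E7.5 and 0.04 at E6.5 (SE 0.29 each). Its signs were opposite in the means, but at E6.5 it was at -0.06 and 0.14 within replicates 1 and 2.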

How the results depend on the processing

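The count of genes past the threshold for GFP+ against GFP- cells at E6.5, 9 in all, was 30 with the replicate block, 4 with each kept probe set on its own, 19 with arrays centred, 16 with quantile normalization, 0 with only the 4 arrays compared, 25 with a variance trend, and 0 to 1 when 1 array was left out. For E7.5 against E6.5 in GFP+ cells, 3 became 0 with no filter, 8 with arrays centred, 0 with only the 4 arrays, and 0 to 3 with 1 array left out. For E7.5 against E6.5 in GFP- cells, 11 became 39 with the replicate block, 17 with the mean of probe sets, 30 with arrays centred, 26 with quantile normalization, 4 with only the 4 arrays, 34 with a variance trend, and 3 to 10 with 1 array left out. For the interaction, 0 became 2 with a variance trend, and for the fractions at E7.5 every setting gave 0. Across genes, arrays with the same replicate number deviated together in all 6 pairs of groups (r = 0.401 to 0.532); with 2 numbers per group this is a hint from the data, and the labels name no pairing. With 1 array left out, the sign turned for Zeb1 at E6.5 between fractions (range -0.13 to 0.80), for Zeb2 (-0.28 to 0.93) and Twist1 (-0.29 to 1.30) at E7.5 between fractions, and for the Twist1 interaction (-0.75 to 0.84), none of which was called. Of 341 values of the members under alternatives, 317 kept their direction and their side of the threshold, 12 lost the Snai1 call at E6.5, 3 gained a call (Snai1 and Zeb2 in GFP- cells between stages) and 9 turned sign. The causes were not tested.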

Other observations

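The keratin genes Krt8, Krt18 and Krt19, which encode the intermediate filaments of simple epithelia, had higher levels at E7.5 than at E6.5 in GFP+ cells, unlike Cdh1. Krt18 was at 9.29 and 8.95 in GFP+ cells at E7.5 and at 6.08 and 6.78 in GFP+ cells at E6.5, a difference of 2.69. Krt8 differed by 1.76 and Krt19 by 2.0, while Cdh1 differed by -0.39 and Crb3 by 0.39. None of these 5 changes passed in limma. The keratins were picked after their values were seen, and the whole epithelial list had 13 genes higher and 12 lower at E7.5 in GFP+ cells (median 0.00), and 21 of 25 lower in GFP- cells. Prkd1, a kinase gene of the list for Snail turnover, was at 2.71 between fractions at E6.5 and at 3.38 between stages in GFP- cells; neither difference passed, and its mean in GFP- cells at E6.5 lay below 4.38.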
